A study of Arabidopsis thaliana with 60 samples.

Results

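Brz91 is a brassinazole, a compound made to block the synthesis of brassinosteroids, and its effect on whole Arabidopsis seedlings was followed at 3 h and at 12 h. The differences from mock rest on 8 of the 60 ATH1 arrays of the series. These are 2 arrays of seedlings with 10 µM Brz91 and 2 arrays of mock seedlings at each time. Arrays were chosen by their labels alone and paired by replicate number. All seedlings were Col-0, 7 days old and grown at 23 °C. The 3 h groups belong to bracket F1 and the 12 h groups to bracket F2, each bracket having its own mock. Brz91 was also set directly against Brz220, propiconazole and prohexadione, each given at 10 µM in the same brackets. The labels do not give what mock seedlings received or whether replicate arrays stand for separate cultures, and p-values therefore cover only the spread between arrays, which could be technical.

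Brassinosteroids are growth hormones of plants. They bind a receptor kinase at the cell surface, and the signal reaches the transcription factors BES1 and BZR1, which raise genes of cell expansion and repress genes of brassinosteroid synthesis. Brassinazoles act on a cytochrome P450 enzyme of that synthesis, DWF4, and plants kept on them are dwarfed with dark green leaves. In bulk seedlings, fewer cells of a type and less RNA per cell cannot be told apart.

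Differences are Brz91 minus mock on the log2 scale of intensity, from 2 arrays per group, and are given ± SE. A positive value means higher with Brz91. The spread behind the SE and the p-values was estimated for each probe set over all arrays of the series, other compounds included. It is thus not the spread of the Brz91 and mock arrays alone. A probe set passed where limma's adjusted p (Benjamini-Hochberg over 17301 probe sets, two-sided, with the replicate number as a block) was under 0.05. Folds of dim probe sets are understated by a constant added before the logarithm. With so few arrays the precision is limited: the 95% interval of a difference reached a median of 0.42 log2 units to each side at each time. Replicate arrays correlated with r of 0.974 and 0.975 for Brz91 at 3 h and 12 h, and 0.966 and 0.979 for the mocks. Whole seedlings hold root and leaf. The lowest intensity on the 8 arrays was 1163.9 among 6 measured root markers, with the beta-glucosidase PYK10 among them. Among 3 measured leaf markers it was 2242.6. The highest median intensity of these arrays was 600.4.

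After 3 h with Brz91, 2 genes of the iron-deficiency response (AT1G47400 and PYE), the light-harvesting gene LHCB4.3 and 6 other named genes were higher, and the lipase gene AT1G29660 and 2 other named genes were lower. Higher values passed for 25 probe sets (0.145% of those tested) and lower values for 14 (0.0809%), with 1549 at an unadjusted p under 0.05. Of these, 9 and 3 name a single gene. Without the block the log2 differences are the same but the spread is larger, and 5 probe sets passed at 3 h (0.0289%), all of them higher, with 399 at an unadjusted p under 0.05 in limma. Leaving out each array in turn gave between 12 higher probe sets (without Brz91 replicate 1) and 24, and between 4 lower ones (without Brz91 replicate 1) and 14. Of the 12 named genes, AT1G47400, LHCB4.3 and AT1G29660 passed in all 4 of these fits, and AT3G01350, AT2G33490 and AT2G35880 in none.

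The gene with the highest passing difference at 3 h was AT1G47400, which encodes a small peptide of the IRON MAN family that promotes the iron-deficiency response. Its intensity was 6725 and 5120 on the Brz91 arrays, against 1719 and 685 on the mock arrays. The Brz91 arrays lay above both mock arrays, a 4.87-fold difference (log2 difference 2.29 ± 0.28, adjusted p = 4.46e-06 in limma). It also passed without the block. A further bracket, G, has its own 3 h mock, and there mock seedlings had 5923 and 5965, close to the Brz91 arrays. The level of this gene in mock seedlings thus differed between the brackets by more than the replicates of either mock. The part of this in the 3 h difference was not tested.

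PYE (POPEYE), a bHLH transcription factor of the iron-deficiency response, had 3009 and 1696 with Brz91, against 1325 and 928 in mock seedlings. Its difference of 0.95 ± 0.18 passed in limma (adjusted p = 0.0048), and both Brz91 arrays lay above both mock arrays. Bracket G mock seedlings had 1363 and 1483, below both Brz91 arrays. PYE passed in 1 of the 4 fits that left out an array: it did not without Brz91 replicate 1 or without either mock array.

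The iron list holds 31 genes, of which 6 were named on the array and kept. At 3 h, 2 of the 6 rose (AT1G47400 and PYE), beside 25 of 17301 probe sets tested (0.145%), and none fell. The list was chosen with earlier results of these data known, so this count is not independent support for an iron response. All 6 differences were above 0, as were 8244 of the 17301 probe sets tested. Their median was 0.47, beside −0.01 over all probe sets tested, and 0.95 without the constant added before the logarithm. BHLH101, a bHLH factor of the same response, had a difference of 0.44 (adjusted p = 0.79 in limma) and AT3G07720, a kelch protein, one of 0.50 (adjusted p = 0.58). At 12 h none of the 6 passed, beside 0.514% of all probe sets tested, and 3 were above 0.

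LHCB4.3, a minor light-harvesting protein of photosystem II, rose at 3 h. It had 7658 and 6012 with Brz91, against 3151 and 2434 in mock seedlings, with a difference of 1.25 ± 0.19 (adjusted p = 0.00027 in limma). Mock seedlings of bracket G, at 2847 and 2322, were near the F1 mock arrays and below both Brz91 arrays. The other leaf markers did not go the same way: LHCB4.1 had a difference of −0.14, and RCA (rubisco activase) had 7220 and 15587 with Brz91, against 16665 and 20385 in mock seedlings (−0.79 ± 0.53, adjusted p = 0.73).

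AT5G01740, AT2G38870 and AT5G64120 also rose at 3 h. AT5G01740, of the NTF2-like family, had 2913 and 3074 with Brz91, against 1687 and 928 in mock seedlings (1.17 ± 0.21, adjusted p = 0.0034). AT2G38870, a protease inhibitor of the potato inhibitor I type, had 5454 and 4628 with Brz91, against 2114 and 2838 in mock seedlings (1.00 ± 0.19, adjusted p = 0.006). For both genes the Brz91 arrays lay above the F1 and the G mock arrays. AT5G64120, a class III peroxidase, had 10563 and 6896 with Brz91, against 5270 and 4278 in mock seedlings (0.83 ± 0.19, adjusted p = 0.042 in limma).

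The remaining named genes that rose at 3 h were AT3G01350, AT2G33490 and AT1G65230. AT3G01350, a transporter of the major facilitator superfamily, had 1520 and 1032 with Brz91, against 393 and 423 in mock seedlings (1.36 ± 0.29, adjusted p = 0.024 in limma). AT2G33490 had 587 and 446 with Brz91, against 160 and 113 in mock seedlings (1.27 ± 0.28, adjusted p = 0.034 in limma). Its mock in bracket G stood at 642 and 494, as high as the Brz91 arrays. The part of this bracket difference in the 3 h value was not tested. AT1G65230 differed by 0.79 ± 0.15 (adjusted p = 0.0068).

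Among the genes that fell at 3 h, AT1G29660, a GDSL-type lipase of the secreted kind, had 1443 and 1480 with Brz91, against 5812 and 3363 in mock seedlings. Its log2 difference was −1.52 ± 0.19 (adjusted p = 6.07e-06 in limma). Bracket G mock seedlings had 3077 and 2530, above both Brz91 arrays. AT5G45950, another GDSL-type lipase, had 1080 and 1345 with Brz91, against 2334 and 2270 in mock seedlings (−0.86 ± 0.16, adjusted p = 0.004). AT2G35880, of the TPX2 family of microtubule proteins, differed by −0.87 ± 0.20 (adjusted p = 0.038 in limma). The 3′ to 5′ ratio of the actin probe sets, a sign of RNA integrity, was 1.32 and 1.36 on the Brz91 arrays at 3 h. On the mock arrays it was 1.89 and 1.43. The same ratio of GAPDH was 0.93 and 1.12 with Brz91 and 0.87 and 0.95 in mock seedlings. The part of RNA integrity in these differences was not tested.

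**Figure D1:**
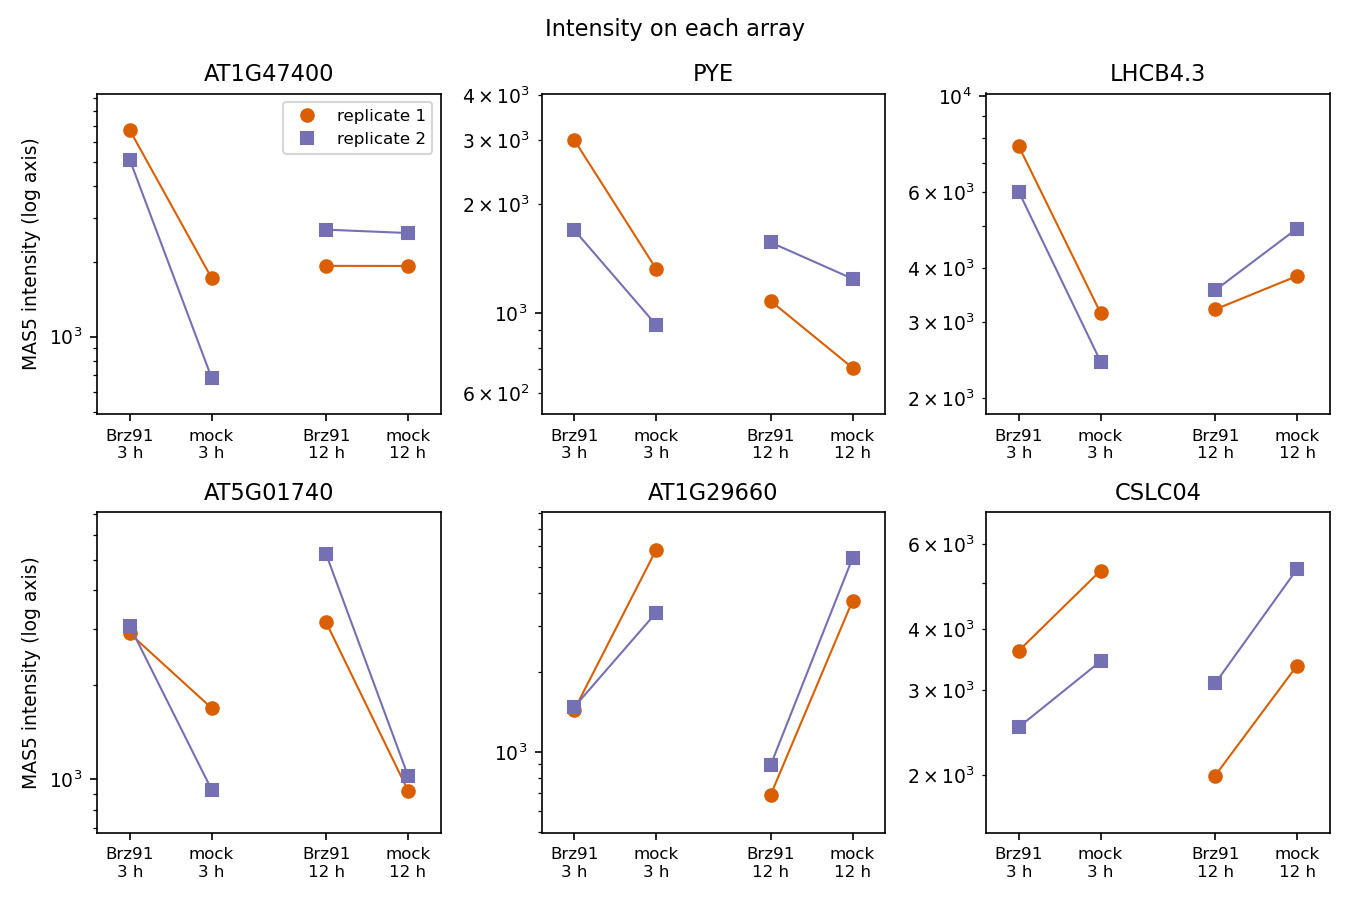
MAS5 intensity (log axis) of 6 genes on the 8 arrays, Brz91 left of mock at each time, with lines joining arrays of the same replicate number. AT1G47400, PYE and LHCB4.3 stand higher with Brz91 at 3 h, AT5G01740 at both times, AT1G29660 lower at both times, and CSLC04 lower at 12 h.

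After 12 h with Brz91, the named genes with the lowest passing differences were AT1G29660, AT2G30690, AT4G18970 and AT2G47440. AT1G29660 and AT4G18970 are GDSL-type lipases. The xyloglucan synthase CSLC04 fell less (−0.74). Those that rose included AT5G01740, AT2G39400 and AT1G21680. Higher values passed for 57 probe sets (0.329% of those tested) and lower values for 32 (0.185%), with 1675 at an unadjusted p under 0.05. Of these, 29 and 16 name a single gene. Without the block 5 passed (0.0289%), 4 of them higher and 1 lower, with 395 at an unadjusted p under 0.05 in limma. The count of 89 at 12 h against 39 at 3 h is not kept without the block (5 at each time) or with an array left out. With the block and all arrays kept, it was 94 against 39 with quantile normalization and 93 against 38 rescaled to a common trimmed mean. It was 97 against 39 without the constant, 75 against 35 without the filter and 76 against 29 with F1 and F2 alone. Rescaled without the block, a setting chosen after seeing the data, it was 39 against 26. Leaving out an array gave 11 to 18 higher and 5 to 11 lower probe sets, the lowest counts without Brz91 replicate 1. Of the 30 named genes tested in this way, 3 passed in all 4 fits: AT1G29660, AT5G01740 and AT1G21680. In none of the 4 fits passed 17: OSM34, IAGLU, STR18, AT1G44830, AT3G15630, AT5G61820, AT1G55265 and AT2G21185 among those that rose, and AT1G75900, AT5G45670, AT5G40830, AT1G30690, AT3G13650, AT1G11850, AT1G80280, AT3G49220 and AT3G06770 among those that fell. The 3′ to 5′ ratio of actin was 1.56 and 1.81 on the Brz91 arrays at 12 h, against 1.45 and 1.37 on the mock arrays. Both Brz91 arrays thus lay above both mock arrays. The same ratio of GAPDH overlapped, at 1.01 and 1.08 with Brz91 and 1.13 and 0.94 in mock seedlings. The part of RNA integrity in the 12 h differences was not tested.

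AT1G29660 had the lowest passing difference at 12 h. It had 689 and 893 with Brz91, against 3729 and 5406 in mock seedlings, groups that do not overlap (−2.33 ± 0.19, adjusted p = 1.61e-10 in limma). AT4G18970, another GDSL-type lipase, had 723 and 1194 with Brz91, against 1679 and 2537 in mock seedlings (−1.04 ± 0.20, adjusted p = 0.0059). AT1G75900 and AT5G45670, also of the GDSL type, had differences of −0.90 and −0.69. AT5G45950, lower at 3 h, was at −0.60 at 12 h, where it did not pass (adjusted p = 0.074 in limma).

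CSLC04 makes the glucan backbone of xyloglucan, the main hemicellulose that ties cellulose fibres together in the primary wall. It had 1994 and 3094 with Brz91, against 3367 and 5328 in mock seedlings at 12 h. Both Brz91 arrays lay below both mock arrays, and the difference of −0.74 ± 0.13 passed in limma (adjusted p = 0.0019). At 3 h it stood at −0.48 (adjusted p = 0.11). It did not pass at 12 h without Brz91 replicate 1 or without mock replicate 2.

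Pectin is another matrix polysaccharide of the primary wall. AT3G49220, a pectin methylesterase, had 3148 and 5514 with Brz91, against 5061 and 8615 in mock seedlings (−0.65 ± 0.15, adjusted p = 0.037 in limma); the groups overlap, while the Brz91 array was lower in each replicate pair. AT3G06770, of the pectin lyase-like family, had a difference of −0.60 (adjusted p = 0.0499) and AT3G13650, a dirigent protein, of a family that guides the coupling of phenolics, one of −0.74 (adjusted p = 0.0499).

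AT2G47440, a tetratricopeptide repeat protein, had 1245 and 1755 with Brz91, against 2778 and 3179 in mock seedlings (−0.94 ± 0.16, adjusted p = 0.0016 in limma). AT4G29020, a glycine-rich protein, was the brightest of the named genes that fell, with 4913 and 8885 on the Brz91 arrays, against 9393 and 13938 on the mock arrays (−0.78 ± 0.14, adjusted p = 0.0017). AT1G30690, a patellin with a Sec14 lipid-binding domain, differed by −0.81, AT5G40830 by −0.82, AT1G80280 by −0.68 and AT1G11850 by −0.69, all with adjusted p under 0.05 in limma. AT2G30690 also passed (−1.09 ± 0.25), at low intensities of 26.2 and 21.1 with Brz91, against 109 and 330 in mock seedlings, so that its fold is understated.

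Among the genes that rose at 12 h, AT5G01740 had 3158 and 5206 with Brz91, against 921 and 1027 in mock seedlings. Both Brz91 arrays lay above both mock arrays, and the difference of 1.92 ± 0.21 passed with an adjusted p of 2.74e-07 in limma. AT2G39400, a hydrolase of the alpha/beta fold, had 1470 and 1370 with Brz91, against 400 and 580 in mock seedlings (1.33 ± 0.22, adjusted p = 0.00065). AT1G21680, a protein with WD40-like repeats, had 2384 and 3895 with Brz91, against 1073 and 1385 in mock seedlings (1.23 ± 0.17, adjusted p = 1.75e-05 in limma). OSM34, an osmotin-like protein of the defence-linked thaumatin family, had 2727 and 3123 with Brz91, against 1035 and 1222 in mock seedlings (1.28 ± 0.27, adjusted p = 0.014).

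IAGLU, which joins glucose to the auxin indole-3-acetic acid, had 2250 and 3351 with Brz91, against 1211 and 1742 in mock seedlings (0.86 ± 0.18, adjusted p = 0.014 in limma). AT1G44830, an ERF transcription factor, had a difference of 0.89 (adjusted p = 0.03) and STR18, a sulfurtransferase, one of 1.01 (adjusted p = 0.028). AT5G22580, a stress-responsive barrel protein, had 6033 and 10490 with Brz91, against 3006 and 4862 in mock seedlings (1.03 ± 0.18, adjusted p = 0.0023). The other 7 of the 15 highest were AT3G15630 (1.28), AT5G57785 (1.07), AT1G01240 (1.06), AT3G47800 (1.02), AT5G61820 (0.88), AT1G55265 (0.85) and AT2G21185 (0.82), where AT3G47800 is related to galactose mutarotases.

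Beyond the 15 highest and 15 lowest, 14 more named genes rose and 1 fell at 12 h, with differences up to 0.79 and down to −0.54. Among them FDH, the mitochondrial formate dehydrogenase, rose by 0.77 ± 0.12 (adjusted p = 0.00048 in limma). GAMMA-VPE, a vacuolar processing protease, rose by 0.79, PPDK (pyruvate phosphate dikinase) by 0.79 and AAH (allantoate amidohydrolase), which releases nitrogen from purine breakdown, by 0.76. The gene that fell was AT3G05910 (−0.54 ± 0.12). These examples were chosen after their values had been seen.

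The 2 times use separate mock arrays and can be set against each other. They lie in different brackets, so time and bracket cannot be told apart. Of 25 probe sets that rose at 3 h, 4 also rose at 12 h (16.0%, or 7.02% of the 57 at 12 h), and of 14 that fell at 3 h, 3 also fell at 12 h (21.4%, or 9.38% of the 32). Over all probe sets tested, 0.329% rose and 0.185% fell at 12 h. None passed in opposite directions. Of the 25 higher at 3 h, 24 were above 0 at 12 h too, with a median of 0.42. Of the 14 lower at 3 h, 11 were below 0 at 12 h, with a median of −0.51. Over all probe sets tested, 8418 of 17301 were above 0 at 12 h, with a median of −0.01.

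The named genes that passed at both times were AT5G01740 and AT1G29660. Of the others without a single gene name, probe set 256598_at had 5070 and 4243 with Brz91, against 986 and 954 in mock seedlings at 3 h, and 4670 and 7084 with Brz91, against 1140 and 1495 in mock seedlings at 12 h. Its differences of 2.11 and 2.03 were close in size at the 2 times, and it passed at both times without the block too. Probe sets 267305_at (1.25 and 1.23) and 250752_at (0.81 and 1.24) rose at both times, and 258217_at (−1.40 and −1.57) and 258218_at (−1.63 and −1.03) fell at both times.

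**Figure D2:**
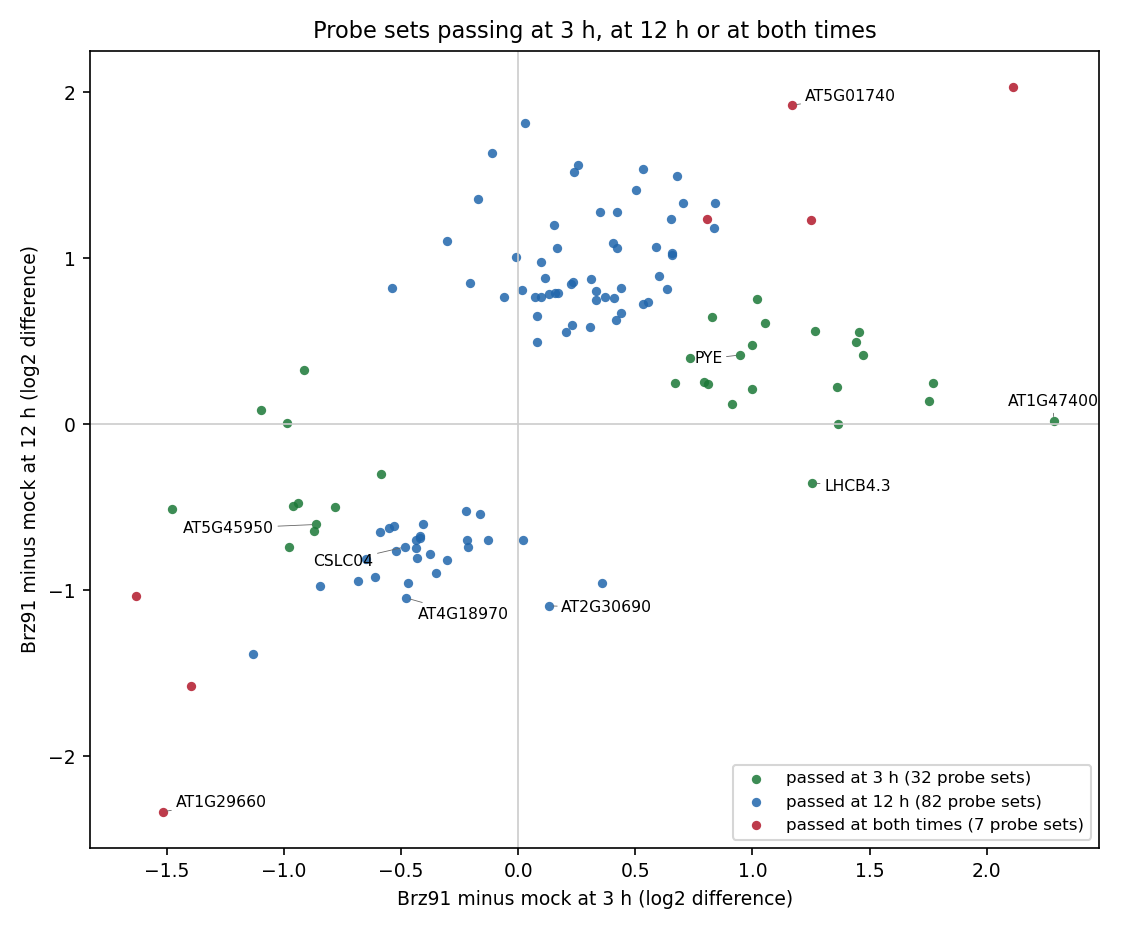
Log2 difference of Brz91 minus mock at 3 h (horizontal) and at 12 h (vertical) for each probe set that passed at either time, coloured by when it passed. AT5G01740 and AT1G29660 passed at both times, while AT1G47400 (2.29 at 3 h) lies at 0.02 at 12 h and LHCB4.3 (1.25 at 3 h) at −0.35.

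The change of the response between the times, tested as the 12 h difference minus the 3 h difference, passed for 4 probe sets (0.0231% of those tested), 2 in each direction, with 1014 at an unadjusted p under 0.05. Without the block none passed in limma, with 220 at an unadjusted p under 0.05, and leaving out an array gave 0 (without Brz91 12 h replicate 1) to 5. AT1G47400 had 1923 and 2685 with Brz91 at 12 h, against 1921 and 2602 in mock seedlings, a difference of 0.02 ± 0.28, and its response changed by −2.26 ± 0.40 (adjusted p = 0.013). LHCB4.3 had 3212 and 3558 with Brz91 at 12 h, against 3837 and 4939 in mock seedlings, and its response changed by −1.61 ± 0.27 (adjusted p = 0.013). Probe sets 253265_at (1.36 ± 0.26) and 245325_at (1.28 ± 0.25) had a higher response at 12 h than at 3 h. Here too, time and bracket cannot be told apart. For AT1G47400 the F1 mock arrays at 3 h were also below the mock arrays of bracket G, as given above.

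Gene lists of brassinosteroid biology were thinly covered by named probe sets. None of the 10 listed synthesis genes and none of the 5 inactivation genes was among the named probe sets, so the synthesis genes known to rise when the hormone is short were not analysed here. BIM1, a partner of BES1 in signalling, had a difference of 0.01 at 3 h and −0.22 at 12 h. Of the 3 measured genes known to be induced by brassinosteroids none passed: EXO, a secreted protein of cell expansion, stood at −0.36 and −0.25, EXPA8 at −1.13 (adjusted p = 0.095 in limma) and −0.66, and XTH19 at 0.39 and −0.98 (adjusted p = 0.16). BRH1, a RING protein gene known to be repressed by brassinosteroids, was at −0.09 and 0.23. Over all probe sets tested, 0.225% passed at 3 h and 0.514% at 12 h, so no pass among so few genes says little about them.

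Xyloglucan endotransglucosylases (XTHs) cut and rejoin xyloglucan as walls grow. None of the 8 measured members passed at either time, beside 0.225% of all probe sets tested at 3 h and 0.514% at 12 h. At 12 h their median was −0.73, with 1 of 8 above 0, beside a median of −0.01 and 8418 of 17301 above 0 over all probe sets tested. XTH18 had 691 and 841 with Brz91, against 1485 and 1758 in mock seedlings at 12 h (−0.96 ± 0.32, adjusted p = 0.22), so both Brz91 arrays were below both mock arrays without passing. XTH19 had 1200 and 851 with Brz91, against 1977 and 2293 in mock seedlings (−0.98 ± 0.29). XTH26 was at −0.92 (adjusted p = 0.10), XTH33 at −0.89 and XTH16 at −0.57.

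Expansins loosen walls without cutting them. None of 15 measured members passed at either time, beside 0.225% of all probe sets tested at 3 h and 0.514% at 12 h. Their median was 0 to 2 decimals at 3 h and −0.25 at 12 h, when 3 of 15 were above 0. EXPA8 had 690 and 755 with Brz91, against 2740 and 1084 in mock seedlings at 3 h, and 673 and 1367 with Brz91, against 1240 and 2065 in mock seedlings at 12 h. EXPB3 was at −0.75 at 12 h (adjusted p = 0.19 in limma). Of 6 measured genes of cellulose and xyloglucan synthesis, CSLC04 fell at 12 h, beside 0.185% of all probe sets tested, and the other 5 did not pass. All 6 were below 0 at 12 h, with a median of −0.27, and CSLC12, of the same family as CSLC04, was at −0.33.

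**Figure D3:**
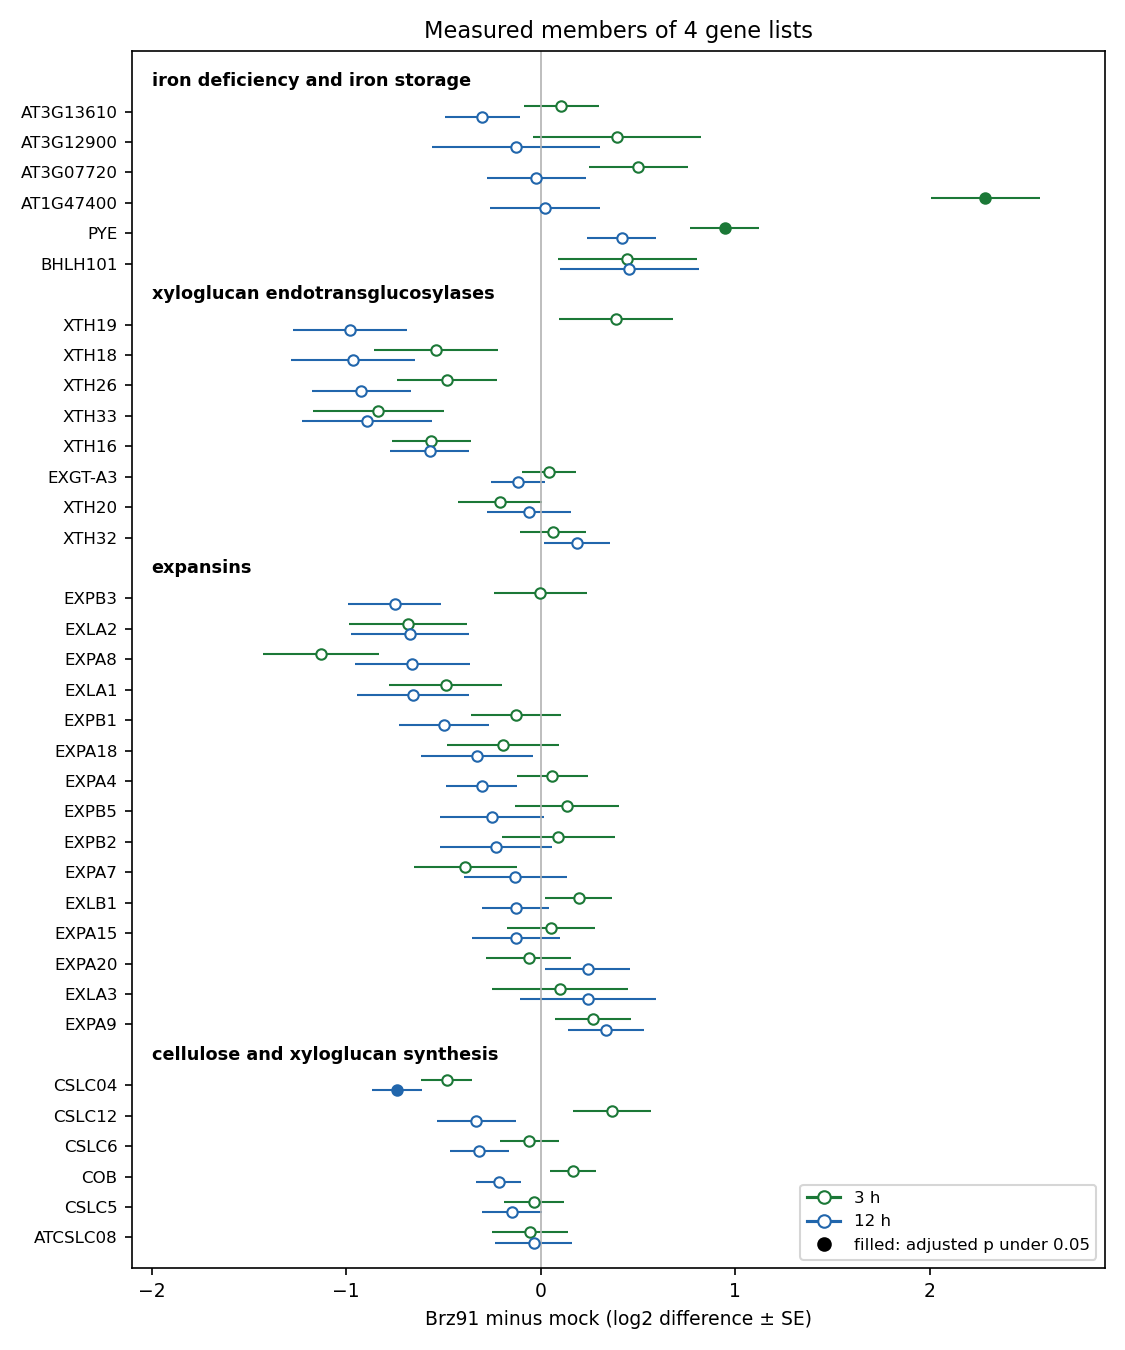
Log2 difference of Brz91 minus mock ± SE at 3 h (green) and 12 h (blue) for the measured members of 4 gene lists, filled where the adjusted p is under 0.05. Filled points are AT1G47400 and PYE at 3 h and CSLC04 at 12 h, and 7 of the 8 XTH genes lie below 0 at 12 h.

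Root and leaf markers are set beside these wall genes because some of the list members are root genes: EXPA7 and EXPA18 are on both lists. None of the 6 root markers passed, beside 0.225% of all probe sets tested at 3 h and 0.514% at 12 h. All 6 were below 0 at each time, with medians of −0.18 at 3 h and −0.32 at 12 h. Over all 17301 probe sets tested, 8244 were above 0 at 3 h and 8418 at 12 h. Their summed intensity was 55281 and 58947 with Brz91, against 65569 and 58403 in mock seedlings at 3 h. At 12 h it was 38419 and 71144 with Brz91, against 54018 and 69360 in mock seedlings. Replicates 1 and 2 are scaled to different levels (trimmed means of 1020 and 1441 at 12 h), so sums compare only within a replicate number. The summed intensity of 3 leaf markers at 12 h was 17234 and 59935 with Brz91, against 51493 and 49103 in mock seedlings. The Brz91 array of replicate 1 was thus below its mock array in this sum. RCA was at 2243 on it, 18865 on its replicate, and 17330 and 17712 in mock seedlings. LHCB4.3 differed less, at 3212 on it and 3837 on its mock array. The part of tissue content in the wall gene values was not tested.

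The other lists held no gene that passed at either time, beside 0.225% of all probe sets tested at 3 h and 0.514% at 12 h. Among 12 measured detoxification genes the median was 0.19 at 3 h and 0.26 at 12 h. GSTU22, a glutathione transferase, had the largest difference there of 0.58 at 12 h (adjusted p = 0.50 in limma). Among 6 gibberellin genes the medians were 0.01 and 0.09, and the receptors GID1B and GID1A stood at 0.29 and 0.25 at 12 h. Among 9 auxin response genes the medians were −0.08 and −0.13. IAA20, an auxin-linked repressor, was at −1.25 ± 0.44 at 12 h, with intensities of 35.5 and 25.9 with Brz91, against 159 and 389 in mock seedlings (adjusted p = 0.27), and at −3.03 without the constant before the logarithm. The sterol genes CPI1 and AT1G31910 stood at −0.10 and −0.09 at 12 h. The stress regulators WRKY53 and WRKY6 were at 0.37 and 0.27 at 3 h, the cuticle gene AT5G33370 at 0.16 at 3 h, and the clock gene GI at −0.16 at both times.

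Brz91 was compared directly with Brz220, a second brassinazole, with propiconazole, a triazole fungicide that also blocks brassinosteroid synthesis, and with prohexadione, which inhibits late dioxygenase steps of gibberellin synthesis. These 6 comparisons were made at 10 µM within each bracket. No probe set passed in limma against Brz220, with 947 at an unadjusted p under 0.05 at 3 h and 635 at 12 h, or against propiconazole, with 1186 and 850. Without the block none passed either, with 205 and 139 at an unadjusted p under 0.05 against Brz220 and 264 and 201 against propiconazole. The interval of the difference lay within 1 log2 unit of 0 for 91.3% and 92.4% of probe sets against Brz220 at 3 h and 12 h. Against propiconazole the shares were 90.7% and 91.7%. Against prohexadione, where probe sets did pass, they were 87.8% and 89.4%, so such shares alone do not show that 2 compounds act alike. Leaving out an array gave 0 to 3 passing probe sets in each of these 4 comparisons.

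For AT1G47400 the interval of Brz91 minus Brz220 was 0.62 to 1.75 at 3 h and −1.71 to −0.58 at 12 h, each before adjustment over the probe sets (adjusted p = 0.40 and 0.48 in limma). For AT5G01740 it was −0.65 to 0.20 at 3 h and −0.60 to 0.25 at 12 h. For AT1G29660 it was −0.55 to 0.23 at 3 h and 0.27 to 1.04 at 12 h, and for CSLC04 −0.31 to 0.22 at 12 h. AT1G47400 is thus the gene of these 4 whose interval reached farthest from 0.

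Against prohexadione 171 probe sets passed at 3 h (0.988% of those tested), 83 higher with Brz91 (0.48%) and 88 lower (0.509%). At 12 h 136 passed (0.786%), 76 higher (0.439%) and 60 lower (0.347%). Without the block 15 passed at 3 h (0.0867%) and 25 at 12 h (0.145%). Leaving out an array gave 40 (without Brz91 replicate 1) to 373 (without prohexadione replicate 2) at 3 h and 46 (without Brz91 replicate 2) to 100 at 12 h. AT5G01740 was higher with Brz91 than with prohexadione by 1.50 at 3 h and 2.07 at 12 h. AT1G29660 was lower, with log2 differences of −1.55 and −1.99. AT1G47400 was higher by 1.77 ± 0.28, LHCB4.3 by 0.99 and PYE by 0.97 at 3 h.

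In 3 of the genes with the largest differences from prohexadione, the mock arrays lay between the compounds or near Brz91. AT5G03350, a legume lectin-like protein, had 1587 and 1085 with Brz91 at 3 h, against 5403 and 7228 with prohexadione, and mock seedlings had 1445 and 1535. AT1G19960 had 56.7 and 129 with Brz91, against 876 and 2437 with prohexadione at 3 h, and 340 and 185 in mock seedlings. AT4G21870, of the small heat shock protein family, had 10175 and 10687 with Brz91, against 3535 and 1996 with prohexadione, and 7100 and 6513 in mock seedlings. For Brz91 against mock AT5G03350 stood at −0.17, AT1G19960 at −0.80 and AT4G21870 at 0.61, and none of these 3 passed (adjusted p = 0.96, 0.52 and 0.21 in limma). AT4G33720, a PR1-like gene, was also higher than with prohexadione (1.91 ± 0.49, adjusted p = 0.046 in limma), at 2750 and 424 with Brz91, against 90.4 and 376 with prohexadione, so that 1 Brz91 array stands far above the other 3.

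At 12 h AT1G23390, a kelch-repeat F-box protein, was higher with Brz91 than with prohexadione by 1.64 ± 0.33, at 5673 and 5432 with Brz91, against 1112 and 2534 with prohexadione. AT5G04120 was lower, at 57.4 and 22.9 with Brz91, against 712 and 677 with prohexadione, and 278 and 218 in mock seedlings (−2.26 ± 0.30 from prohexadione, adjusted p = 8.96e-06 in limma). AT1G73340, a cytochrome P450, was lower than with prohexadione at 3 h (−1.81 ± 0.42).

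Side by side, each compound against the mock of its bracket, AT5G01740 differed at 12 h by 1.92 with Brz91, 2.1 with Brz220, 2.16 with propiconazole, 2.18 with uniconazole, 1.86 with paclobutrazol and −0.15 with prohexadione. AT1G29660 differed by −2.33 with Brz91, −2.98 with Brz220 and −0.34 with prohexadione at 12 h. These comparisons share the mock arrays, so their values are not independent. AT1G47400 at 3 h differed by 2.29 with Brz91, 2.20 with propiconazole, 1.24 with uniconazole, 1.1 with Brz220, 0.93 with paclobutrazol and 0.52 with prohexadione. Compounds of other kinds had like values for that gene against the same F1 mock: 2.61 with PNO8 at 1 µM, 2.48 with ibuprofen and 2.46 with MG132, a proteasome inhibitor. PYE and LHCB4.3 stood at 1.04 and 1.24 with ibuprofen at 3 h, near their Brz91 values of 0.95 and 1.25.

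**Figure D4:**
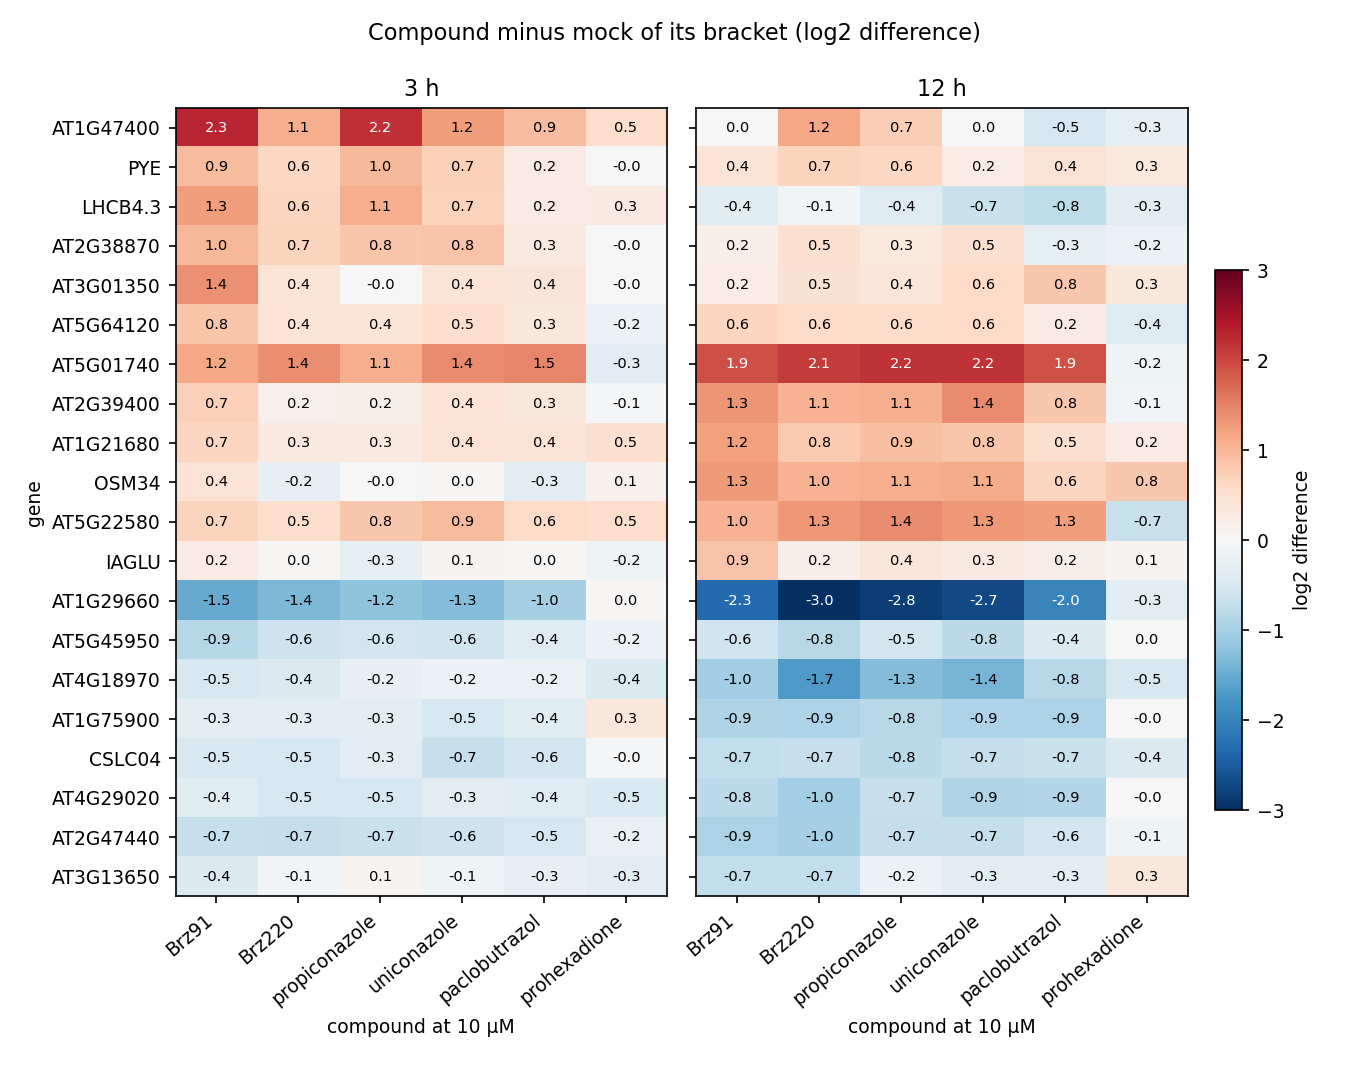
Log2 difference of each compound at 10 µM minus the mock of its bracket for 20 genes, at 3 h (left) and 12 h (right), with red above 0 and blue below. The rows of AT5G01740 and AT1G29660 carry the same colour for the first 5 compounds at both times and values near 0 for prohexadione, while AT1G47400 is at 2.3 with Brz91 and 2.2 with propiconazole at 3 h.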

How the data were processed

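RNA of whole seedlings was hybridised to Affymetrix ATH1 arrays. The deposited intensity values are on a linear scale and were made with MAS5, per the submitters' processing notes; the sources used here give no settings. Arrays that share a bracket and a replicate number also share their 2% trimmed mean (1523 and 1220 in F1, 1020 and 1441 in F2), which makes 6 scaling sets in the series.

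Control probe sets (64 of 22810) were left out. Values were transformed as log2(intensity + 133.4), where the constant is the median of the 60 arrays' 20th percentiles. Of 22746 probe sets, 17301 exceeded the 40th percentile of at least 2 arrays and were tested. A linear model (limma 3.58.1, R 4.3.3) on all 60 arrays had a mean for each group and the replicate number within each bracket as a block (27 residual degrees of freedom; 30 without the block), and an intensity trend in the variance. The median residual SD was 0.209 with the block and 0.312 without. The pairing comes from the shared scaling level. As a check, the replicate 1 minus replicate 2 deviations of Brz91 and mock correlated over probe sets with r of 0.032 at 3 h and 0.147 at 12 h.

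Gene names came from the old platform annotation: 13513 probe sets name 1 gene, 503 several, 8730 none listed, and 13436 matched the TAIR10.1 gene table. Named are the 15 highest and 15 lowest passing genes at each time whose pairs moved the same way, genes passing at both times, passing list members or otherwise the 2 with the largest difference, and 3 in each direction for other comparisons. Of 373 list entries in 18 lists, 84 were kept. The members and lists were chosen with earlier results of these data known. On simulated data with 17301 probe sets, the fit found 76% (3 h) and 71% (12 h) of changes of log2 size 1, and 99% and 98% of size 2, with 12 and 9 false calls.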

Additional observations from a re-analysis of the deposited data

Results flagged for a closer look

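In 4 probe sets the Brz91 response at 12 h differed from that at 3 h by a test of the difference itself (limma, adjusted p under 0.05). The 12 h response minus the 3 h response was −2.26 for AT1G47400, where the difference from mock was 0.02 at 12 h and 2.29 at 3 h. It was −1.61 for LHCB4.3, with −0.35 at 12 h and 1.25 at 3 h. It was 1.36 for probe set 253265_at, with 0.82 at 12 h and −0.54 at 3 h, and 1.28 for probe set 245325_at, with 1.52 at 12 h and 0.24 at 3 h. AT1G47400 passed in 2 and LHCB4.3 in 3 of the 8 fits that left out an array. The 2 times lie in different brackets with their own mocks, so time and bracket cannot be told apart.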

How the results depend on the processing

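Alternatives were quantile normalization, no constant before the logarithm, no filter on dim probe sets, arrays of brackets F1 and F2 alone, no replicate block, rescaling to a common trimmed mean, and each array left out. No result that had passed changed sign under them, and with rescaling alone every count stayed within 1.5 times. Without the replicate block, 5 higher and 0 lower probe sets passed at 3 h, 4 and 1 at 12 h, 0 for the change between times, and 15 and 25 against prohexadione at 3 h and 12 h. Rescaled without the block (chosen after seeing the data), 8 lower passed at 3 h, 27 higher and 12 lower at 12 h, 1 for the change and 79 against prohexadione at 3 h. Without the constant 2 passed for the change and 4 against Brz220 at 12 h, without the filter 2 for the change, and with F1 and F2 alone 8 lower at 3 h and 2 for the change. Of the named genes' results that had passed, 41 no longer did without the replicate block, 20 rescaled without it, 7 without the filter, 7 with F1 and F2 alone, 3 with quantile normalization and 2 without the constant. Without the constant, differences from mock of named genes that had not passed moved to −1.55 (AT1G19960) and 0.62 (WRKY53) at 3 h, −2.12 and −2.47 (AT1G73340, 3 h and 12 h) and −3.03 (IAA20) at 12 h, the iron median at 3 h to 0.95, and AT5G04120 passed at 12 h (−2.76), as it did with quantile normalization. Leaving out each array gave 12 to 24 higher and 4 to 14 lower at 3 h, 11 to 18 and 5 to 11 at 12 h, 0 to 5 for the change, 0 to 3 and 0 to 1 against Brz220 at 3 h and 12 h, 0 to 2 and 0 to 3 against propiconazole, and 40 to 373 and 46 to 100 against prohexadione. The cause of these shifts was not tested.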
